A study of Caenorhabditis elegans with 6 samples.

Results

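The insulin-like signalling pathway of Caenorhabditis elegans and the transcription factors that act with it were followed in worms with extra or deleted hlh-30. The 10 genes were chosen by name, with earlier results of these data known. They were daf-2, age-1, akt-1, akt-2, sgk-1 and daf-18 of the signalling cascade, and daf-16, skn-1, hsf-1 and pqm-1 of the transcription factors. All 10 were found among the 21498 genes present in both deposited tables, and all 10 passed the filter on low values in every comparison. RNA of whole nematodes on the first day of adulthood was sequenced from 3 groups of 2 libraries: hlh-30 overexpression, hlh-30 ko and control. HLH-30 is the worm relative of the mammalian factor TFEB, which switches on autophagy and lysosome genes, and the groups were made to ask what more or less of it does in worms that produce the human Aβ peptide. The control is labelled WT in genotype and GMC101 in description, so it is itself an Aβ strain, in which the muscle promoter unc-54p drives Aβ1-42 and mtl-2p drives GFP. By the study's strain list, overexpressing strains built on it carry hlh-30 fused to GFP under its own promoter, and the knockout strain carries the allele syb6883, which removes the first exons of hlh-30. According to the methods, all worms were moved to a warmer temperature as young adults to induce Aβ. The description of the series names the Aβ strain CL4176 in place of GMC101. Nothing in the labels says whether the 2 libraries of a group came from separate cultures, so p-values measure the spread between these libraries only, which may be technical.

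DAF-2 is the worm's insulin and IGF receptor. Signalling through it reaches the PI3-kinase AGE-1 and then the kinases AKT-1, AKT-2 and SGK-1, which phosphorylate the FOXO factor DAF-16 and hold it in the cytoplasm, and DAF-18 removes the lipid that AGE-1 makes. When signalling is low, DAF-16 enters the nucleus and switches on stress resistance genes (class 1 targets), whereas PQM-1, a zinc finger factor mainly of the intestine, leaves the nucleus and its growth and yolk genes (class 2 targets) go down. SKN-1, the worm NRF factor, and HSF-1, the heat shock factor, are also restrained by the pathway. Phosphorylation and nuclear entry do not show in RNA levels, so the values below describe transcripts, not pathway activity.

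Each library held 18097925 to 19300834 reads on genes, and values are normalized reads, that is, reads divided by the library's size factor. Normalized reads of hlh-30, the targeted gene, were 6019 and 5713 with overexpression, 2130 and 3073 in libraries labelled knockout and 3103 and 3325 in control. It was 1.83-fold higher with overexpression (limma, adjusted p = 3.97e-06), and with knockout it did not pass the test (log2 fold change -0.33; adjusted p = 0.511). The table gives one value for hlh-30 and places it at 4015615 to 4019039 of chromosome IV. The Ensembl annotation of WBcel235 gives it 4014793 to 4034951 with 13 transcripts. Only the first exons are deleted, and whether they lie in the counted part was not tested. The 2 libraries labelled knockout differed more from each other than those of the other groups: 10.1% of 16270 genes differed at least 2-fold between them, against 3.96% between the overexpression libraries and 4.86% between the control libraries. Tissue marker sums also moved. The 5 intestine markers found of 6 listed summed to 8206 and 10026 normalized reads with overexpression, 11984 and 5558 with knockout and 5641 and 6255 in control. With overexpression, 4 of them were called higher. They include elt-2, read again below as a longevity factor, and vha-6, a v-ATPase gene. By qPCR, the study reported higher v-ATPase transcripts with hlh-30 overexpression, so the sum is not a measure of intestine content alone. Body wall muscle markers summed to 119909 and 119931 with overexpression, 125356 and 123166 with knockout, and 147587 and 145862 in control, with 4 of 6 called lower with overexpression. They include unc-54, whose promoter and untranslated region are part of the Aβ transgene of GMC101. Whether transgene reads add to this sum was not tested. With overexpression, 5 of 10 sperm and 3 of 10 germline and oocyte markers were called lower, and none of 6 neuron and of 4 tested early embryo markers was called (1 and 0 at an unadjusted p under 0.05). Of 6 hypodermis markers, 2 were called higher and 1 lower. The highest was rol-6, a collagen gene and a common transgene marker, with 1029 and 1016 normalized reads in overexpression libraries, 15.5 and 40.7 in knockout libraries and 31.7 and 14.2 in control libraries. The strain list gives the rol-6 plasmid pRF4 to CL4176 and the hlh-30 overexpressing strain built on it, and to one of the overexpressing and one of the knockout strains with the transgene of GMC101. GMC101 itself and the other overexpressing strain built on it are listed without it. The labels do not name the overexpressing strain that was sequenced, so hlh-30 and other differences between the strains cannot be told apart. In whole worms, fewer cells of a type and less RNA per cell cannot be told apart either. No marker of any list was at 0 in all libraries.

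All 10 genes were well measured. Per kilobase of the gene length in the tables, the control libraries ranked daf-18 first with a mean of 2809 normalized reads, followed by akt-1 with 1756, skn-1 with 1372, daf-16 with 1173 and daf-2 with 1003. Below these came pqm-1 with 750, hsf-1 with 736, age-1 with 566, sgk-1 with 357 and akt-2 with 225. The lipid phosphatase gene daf-18 thus stood at the 95.5th percentile of 16270 genes and akt-2 at the 54.8th. The 2 control libraries kept this order apart from pqm-1 (715 to 785 per kilobase) and hsf-1 (723 to 749), whose ranges overlapped. With overexpression pqm-1 reached a mean of 1131 per kilobase (1068 to 1193), a range that held that of daf-16 (1107 to 1120) and lay above that of daf-2 (885 to 919). In the knockout libraries pqm-1 had 1014 per kilobase in 1 library and 1015 in the other, above daf-2 (707 to 919) and within the range of daf-16 (984 to 1193).

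**Figure D1:**
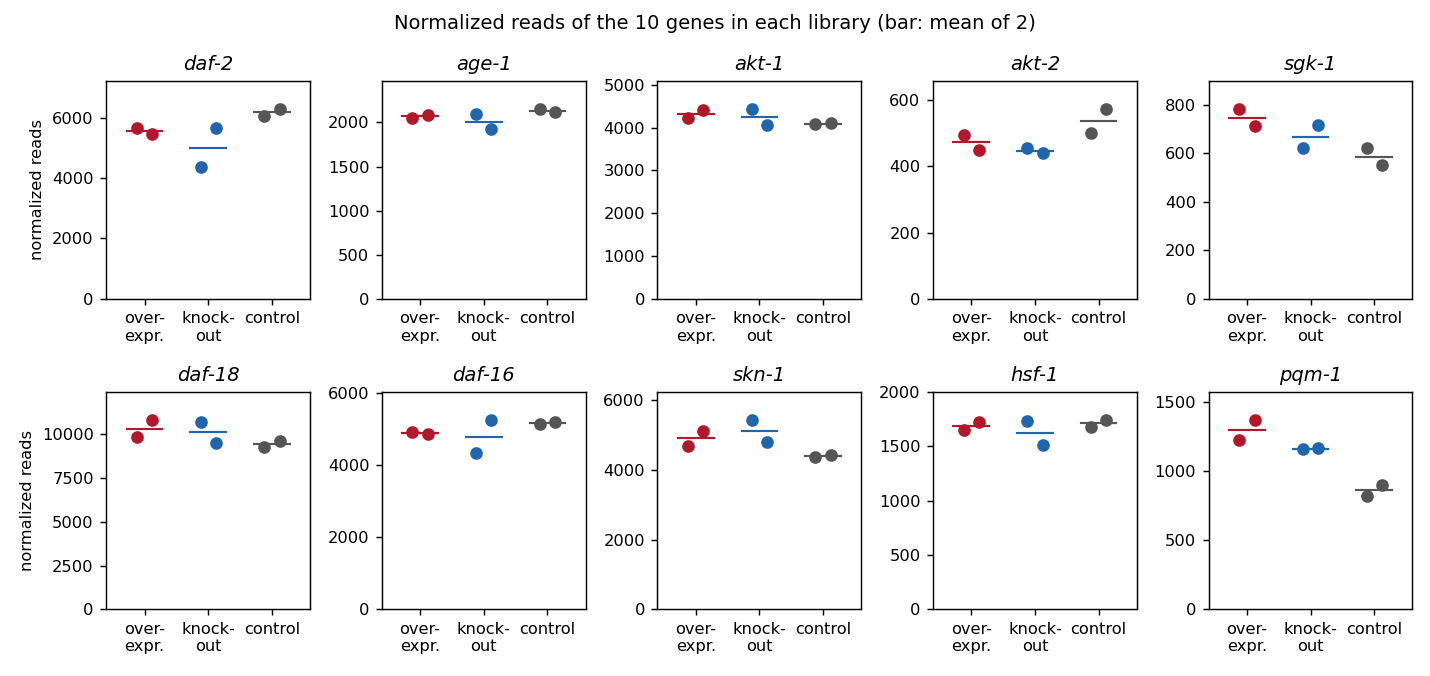
Normalized reads of each of the 10 genes (vertical axis, from 0) in the overexpression, knockout and control libraries; each point is a library and each bar the mean of 2. The overexpression libraries of pqm-1 (1226 and 1370) and sgk-1 (782 and 715) stand above their control libraries (821 and 902 for pqm-1, 621 and 552 for sgk-1), while the points of hsf-1 mix.

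With hlh-30 overexpression, pqm-1 and sgk-1 were higher than in control worms and no member was called lower. These were 2 of 10 members called at an adjusted p under 0.05, beside 14.8% of all 15918 genes tested, and the share called higher among all genes was 6.71%. None of the 10 reached a 2-fold change as well (1.86% of all genes). At an unadjusted p under 0.05 there were 5 of 10 members, beside 28.9% of all genes. The overexpression and control libraries did not overlap for 9 of 10 members, beside 57.4% of all genes. The median log2 fold change of the members was 0.03, against -0.0016 for all genes tested.

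The transcription factor gene pqm-1 (F40F8.7; WBcel235 genome, chromosome II, minus strand, 11150391 to 11152595) has 1 annotated transcript and no overlapping gene. Its normalized reads were 1226 and 1370 with overexpression, 1164 and 1165 with the knockout label and 821 and 902 in control. All 4 libraries with altered hlh-30 were above both control libraries. Both groups share these control libraries, and the share of all genes with this pattern was not counted. With overexpression it was 1.51-fold higher (95% interval 1.32 to 1.71; log2 fold change 0.59, SE 0.09; limma, adjusted p = 0.000921). Its rank from the top was 1542 of 15918 genes, so its change was moderate among all genes. The call was lost without control replicate 1 (log2 fold change 0.52, adjusted p = 0.306) and without control replicate 2 (0.66, adjusted p = 0.235), settings in which no gene of the 15918 was called. It was also lost with no filter on low values (adjusted p = 0.112), with limma without the trend (0.184) and with all 6 libraries in one fit (0.137). Over 13 alternatives its adjusted p ranged from 9.43e-09 to 0.306, and 8 of them kept the call. The intestine marker sum was 1.53-fold higher in the overexpression libraries than in control, and its part in the higher pqm-1 level was not tested. Between the 2 libraries labelled knockout that sum differed 2.16-fold, and pqm-1 had 1164 and 1165.

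The kinase gene sgk-1 (W10G6.2, minus strand of chromosome X, 16254842 to 16262122, 3 transcripts, no overlapping gene) encodes a kinase related to the AKT kinases that acts in the pathway and also downstream of TORC2. Its normalized reads were 782 and 715 with overexpression, 621 and 718 with the knockout label and 621 and 552 in control. Both overexpression libraries were above both control libraries, while the lower knockout library was at the level of the higher control library. It was 1.28-fold higher with overexpression (95% interval 1.10 to 1.48; log2 fold change 0.35, SE 0.10; limma, adjusted p = 0.0310). The call was lost with DESeq2 (adjusted p = 0.0510), without overexpression replicate 1 (0.28, adjusted p = 0.106), without control replicate 1 (0.44, adjusted p = 0.306) and without control replicate 2 (0.27, adjusted p = 0.291). It was also lost with no filter on low values (adjusted p = 0.170), with limma without the trend (0.239) and with all 6 libraries in one fit (0.286). Over 13 alternatives its adjusted p ranged from 0.00996 to 0.306, and 6 of them kept the call.

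The receptor gene daf-2 (Y55D5A.5, minus strand of chromosome III, 2994514 to 3040846, 7 transcripts) is the longest of the 10 and the one whose RNA varied most in the knockout libraries. Its normalized reads were 5672 and 5460 with overexpression, 4359 and 5667 with knockout and 6085 and 6287 in control. Every library with altered hlh-30 was below both control libraries, a pattern whose share over all genes was not counted. Against control, overexpression gave daf-2 a log2 fold change of -0.15 (95% interval -0.27 to -0.04; unadjusted p = 0.0127), which did not pass the test (limma, adjusted p = 0.0716).

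The lipid kinase gene age-1 (B0334.8, minus strand of chromosome II, 11519328 to 11527054) showed 2051 and 2089 normalized reads with overexpression, 2097 and 1921 with knockout and 2148 and 2116 in control. The opposing lipid phosphatase gene daf-18 (T07A9.6, minus strand of chromosome IV, 420011 to 425177) had 9808 and 10786 with overexpression, 10693 and 9476 with knockout and 9240 and 9595 in control. The overexpression libraries of age-1 were below its control libraries and those of daf-18 above, by small steps. The log2 fold change with overexpression was -0.04 for age-1 (95% interval -0.18 to 0.09; limma, adjusted p = 0.701) and 0.13 for daf-18 (0.01 to 0.25; unadjusted p = 0.0377, adjusted p = 0.146). The interval of age-1 leaves room for changes of up to about 1.07-fold upward and 0.885-fold downward.

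The kinase genes akt-1 and akt-2 lay on opposite sides of control. The gene akt-1 (C12D8.10, plus strand of chromosome V, 10248905 to 10252845) showed 4233 and 4414 normalized reads with overexpression, 4427 and 4057 with knockout and 4078 and 4100 in control. The gene akt-2 (F28H6.1, plus strand of chromosome X, 14147700 to 14152070) had 496 and 449 with overexpression, 454 and 441 with knockout and 502 and 572 in control. Neither log2 fold change with overexpression passed the test, at 0.08 for akt-1 (95% interval -0.04 to 0.20; limma, adjusted p = 0.367) and -0.18 for akt-2 (-0.42 to 0.06; adjusted p = 0.304). The interval of akt-2, the gene with the fewest reads of the 10, was the widest in this comparison.

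Among the other transcription factors, none passed the test with overexpression. The FOXO gene daf-16 (R13H8.1, plus strand of chromosome I, 10750498 to 10776703, 11 transcripts) showed 4931 and 4876 normalized reads with overexpression, 4336 and 5256 with knockout and 5136 and 5193 in control. Its log2 fold change with overexpression was -0.07, and the 95% interval of -0.19 to 0.04 bounds a change of the total transcript between 0.878-fold and 1.03-fold (limma, adjusted p = 0.379). The tables give one value per gene, so its isoforms were not separated.

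The NRF gene skn-1 (T19E7.2, minus strand of chromosome IV, 5651039 to 5660384, 4 transcripts) showed 4670 and 5127 normalized reads with overexpression, 5424 and 4811 with knockout and 4376 and 4413 in control. All 4 libraries with altered hlh-30 were above both control libraries, a pattern whose share over all genes was not counted. The log2 fold change with overexpression was 0.15 (95% interval 0.03 to 0.28; unadjusted p = 0.0201) and did not pass the test (limma, adjusted p = 0.0957). The heat shock factor gene hsf-1 (Y53C10A.12, minus strand of chromosome I, 11953507 to 11963085, 2 transcripts) had 1651 and 1724 with overexpression, 1734 and 1510 with knockout and 1681 and 1741 in control. It was the only one of the 10 whose overexpression and control libraries overlapped, with a log2 fold change of -0.02 (95% interval -0.17 to 0.12; limma, adjusted p = 0.877).

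For daf-2, daf-18 and skn-1 the log2 fold change depended on which overexpression library was left out. Without overexpression replicate 1 it was -0.18 for daf-2, 0.19 for daf-18 and 0.22 for skn-1. Without overexpression replicate 2 it was -0.12 for daf-2, 0.06 for daf-18 and 0.09 for skn-1.

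Reads of several of these genes could in part come from neighbours, since counting by strand is not stated. Coding genes overlap on the other strand at age-1 (B0334.10 and Y62F5A.10), at akt-1 (rop-1) and at skn-1 (csn-5 and clec-178). Non-coding genes overlap daf-2 (1), daf-16 (6) and skn-1 (2). No other annotated gene overlaps akt-2, sgk-1, daf-18, hsf-1 or pqm-1.

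With hlh-30 knockout, none of the 10 genes passed the test. The count was 0 with limma, edgeR and DESeq2, beside 0.0127% of 15749 genes tested with limma, and 1 member had an unadjusted p under 0.05 (pqm-1), beside 11% of all genes. The same 2 control libraries served both comparisons, so the fold changes of the overexpression and knockout groups share their reference. The knockout and control libraries did not overlap for 6 of 10 members (daf-2, age-1, akt-2, sgk-1, skn-1 and pqm-1), beside 45.7% of all genes. The median log2 fold change of the members was -0.01, against 0.0014 for all genes. The log2 fold change of pqm-1 was 0.44 (SE 0.12, 95% interval 0.15 to 0.72, unadjusted p = 0.00936), with a limma adjusted p of 0.398. The next in size were daf-2 at -0.31 (95% interval -0.64 to 0.01; adjusted p = 0.461), akt-2 at -0.26 (-0.61 to 0.10; adjusted p = 0.529), skn-1 at 0.22 (-0.02 to 0.46; adjusted p = 0.473) and sgk-1 at 0.19 (-0.16 to 0.55; adjusted p = 0.614). For the remaining genes, the log2 fold changes lay between -0.11 (daf-16) and 0.10 (daf-18).

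The libraries labelled knockout lay apart by different amounts for the 10 genes. On the log2 scale the first minus the second library was -0.38 for daf-2, -0.28 for daf-16, -0.21 for sgk-1, 0.20 for hsf-1 and 0.17 for both daf-18 and skn-1. It was 0.13 for age-1 and akt-1, 0.04 for akt-2 and -0.0017 for pqm-1. The median size of this difference over 16270 genes was 0.303 for knockout, against 0.149 for overexpression and 0.148 for control. Thus 9 of the 10 members differed less between the knockout libraries than the median gene. The members stood at the 54.8th (akt-2) to 95.5th (daf-18) percentile of level per kilobase in control. They were not compared with genes of like level. Leaving out 1 knockout library changed the log2 fold changes of some members. That of pqm-1 was 0.43 without knockout replicate 1 and 0.44 without knockout replicate 2. In the same order, daf-2 had -0.13 and -0.49, and daf-16 0.020 and -0.24. For daf-18 the values were 0.0043 and 0.19, and for skn-1 0.13 and 0.31.

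The overexpression and knockout libraries were also compared directly, in a fit of all 6. No member was called by limma, edgeR or DESeq2, beside 0.111% of 16270 genes with limma, and 0 of 10 members had an unadjusted p under 0.05, beside 11.1% of all genes. The libraries of the 2 groups did not overlap for 1 of 10 members, pqm-1, beside 38.9% of all genes. The log2 fold change of pqm-1, overexpression over knockout, was 0.15 (95% interval -0.09 to 0.40; limma, adjusted p = 0.654). That of sgk-1 was 0.16 (-0.14 to 0.46; adjusted p = 0.705) and that of daf-2 was 0.16 (-0.12 to 0.44; adjusted p = 0.681). The level of hlh-30 itself was 2.29-fold higher (95% interval 1.78 to 2.95; adjusted p = 0.0589).

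**Figure D2:**
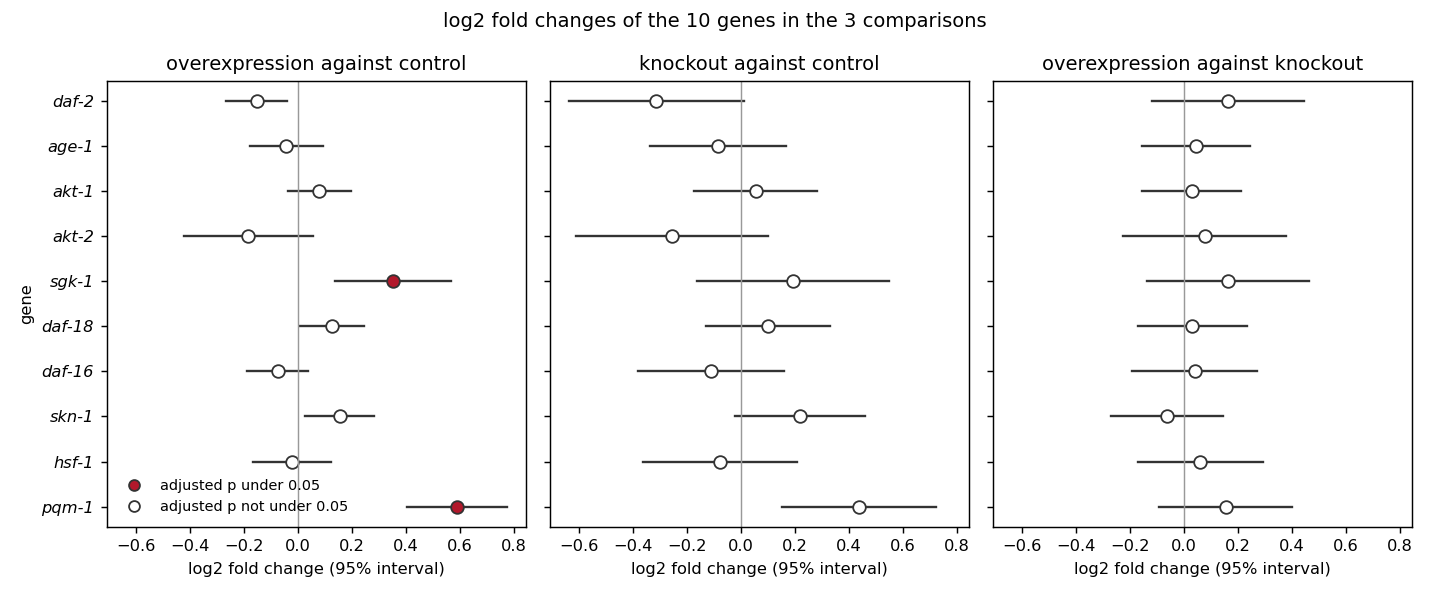
Log2 fold changes of the 10 genes (horizontal axis) with their 95% intervals (lines) for overexpression against control, knockout against control and overexpression against knockout. Filled points had an adjusted p under 0.05, which held for pqm-1 (0.59) and sgk-1 (0.35) with overexpression and for no gene in the other comparisons.

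Genes around the 10 were read from lists of partners, regulators and targets, of which 3 listed genes were not matched to the tables. The lists were chosen with earlier results of these data known. Their counts are therefore descriptive and not a test against all genes. In the overexpression comparison, 14.8% of all genes were called and their median was -0.0016, the background for each count that follows. Without either one of the control libraries no gene of any list was called, as for all genes.

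The share called was 4.35% for tested insulin-like peptide genes and 12.5% for tested partners of the cascade, beside 14.8% of all genes. Of 39 insulin-like peptide genes, 23 passed the filter and 1 was called, ins-10, which fell to 11.51 and 16.37 normalized reads with overexpression, against 29.62 and 45.74 in control (log2 fold change -1.36; limma, adjusted p = 0.0475). The median of the 23 was -0.06. The call was kept with edgeR and with TMM scaling. No peptide gene was called with a pseudocount of 0.1, with DESeq2, without the trend, with no filter or with all 6 libraries in one fit. Of 8 tested partners of the cascade, pptr-1 was called lower at -0.25 (adjusted p = 0.0286), with a list median of -0.07. It encodes a subunit of the phosphatase that removes phosphate from AKT-1.

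Of 12 genes that regulate DAF-16, 5 were called with overexpression, all lower, with a list median of -0.15. The 4 with the smallest adjusted p were par-5, a 14-3-3 protein (log2 fold change -0.27), math-33, a deubiquitylase (-0.22), prmt-1, an arginine methyltransferase (-0.21), and rle-1, a ubiquitin ligase (-0.30). These genes include both brakes on DAF-16 (par-5 and rle-1) and genes that favour it (math-33 and prmt-1). Of 11 SKN-1 regulators, 3 were called. The gene wdr-23, whose protein directs SKN-1 to destruction, was higher, with 3894 and 4321 normalized reads with overexpression against 3085 and 3052 in control (0.42; limma, adjusted p = 0.00107). The genes png-1, for an enzyme that processes one form of SKN-1 (-0.31), and gsk-3, for a kinase that restrains SKN-1 (-0.24), were lower, and the list median was -0.05. Of 7 HSF-1 regulators, hsp-1 (-0.35) and daf-21 (-0.25), which encode the chaperones HSC70 and HSP90, were called lower, and the list median was -0.18.

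Among DAF-16 class 1 targets, 11 of 19 tested genes were called with overexpression, 2 higher and 9 lower, with a median of -0.23. The gene icl-1 of the glyoxylate cycle had 28579 and 20605 normalized reads with overexpression, 20433 and 48237 with knockout and 48211 and 47751 in control. It fell by 0.98 on the log2 scale with overexpression (SE 0.10; limma, adjusted p = 0.000151). Also lower were lea-1, a desiccation protein gene (-0.39), tts-1, a long non-coding RNA (-0.51), and sip-1, a small heat shock protein gene that stands in the HSF-1 list too (-0.26). The 2 higher genes were fat-7, for a fatty acid desaturase, and lys-7, for a lysozyme. Reads of fat-7 were few, with 59.5 and 73.2 with overexpression, 36.1 and 33.1 with knockout and 4.23 and 8.13 in control (log2 fold change 3.28; adjusted p = 0.000649). It was under 10 in both control libraries, so in this comparison it passed the filter only through the overexpression libraries. With at least 10 normalized reads required in every library it was not tested, and 1 of 18 class 1 targets was called higher and 9 lower. For lys-7 the libraries had 1610 and 1635 with overexpression, 1605 and 291 with knockout and 1195 and 1046 in control (0.54; adjusted p = 0.00107).

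Among PQM-1 class 2 targets, 6 of 12 tested genes were called with overexpression, all higher, and the median was 0.63. Some of these genes passed the filter only through libraries in which they were high. With at least 10 normalized reads required in every library, 3 of 9 tested genes were called, all higher, with a median of 0.44. The genes left out by that rule include dod-17, given below. The yolk protein gene vit-5 had 19827 and 18908 normalized reads with overexpression, 9511 and 7392 with knockout and 9177 and 8508 in control. It was higher with overexpression by 1.13 on the log2 scale (SE 0.05; limma, adjusted p = 4.99e-07) and was also higher in overexpression than in knockout libraries (1.21; adjusted p = 0.0178), the only gene of all the lists of partners, regulators and targets with a call in that comparison. The peptide transporter gene pept-1 had 1118 and 1394 with overexpression, 1672 and 994 with knockout and 739 and 739 in control (0.76; adjusted p = 0.000575). For dod-17 the values were 72.0 and 94.4 with overexpression, 171 and 9.46 with knockout and 13.8 and 7.11 in control (2.93; adjusted p = 0.000718), and dod-23 was higher by 0.74. Several class 2 genes act in the intestine, and the part of the 1.53-fold higher intestine marker sum in these values was not tested. Of the 5 intestine markers, 4 were called higher and the median was 0.53. The marker that was not called, ges-1, is also a class 2 target (log2 fold change -0.11; adjusted p = 0.547).

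Among SKN-1 targets, 2 of 19 were called with overexpression, both higher: wdr-23, named above, and nit-1, a nitrilase gene (log2 fold change 0.92; limma, adjusted p = 0.0418). The median was 0.02. Among HSF-1 targets, 7 of 18 were called, all lower, with a median of -0.16. They included hsp-1 and daf-21 of the regulator list, sip-1 and the co-chaperone gene sti-1, which had 2508 and 2167 normalized reads with overexpression, 2648 and 2380 with knockout and 3293 and 3146 in control (-0.47; adjusted p = 0.00154). Of 16 other longevity factors, 5 were called, all higher, with a median of 0.11. The first 4 were atf-7, a p38 pathway factor (0.28), dve-1, a homeobox factor of the mitochondrial stress response (0.59), elt-2, the main GATA factor of the intestine (0.53), and nhr-49, a nuclear receptor of fat metabolism (0.25).

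**Figure D3:**
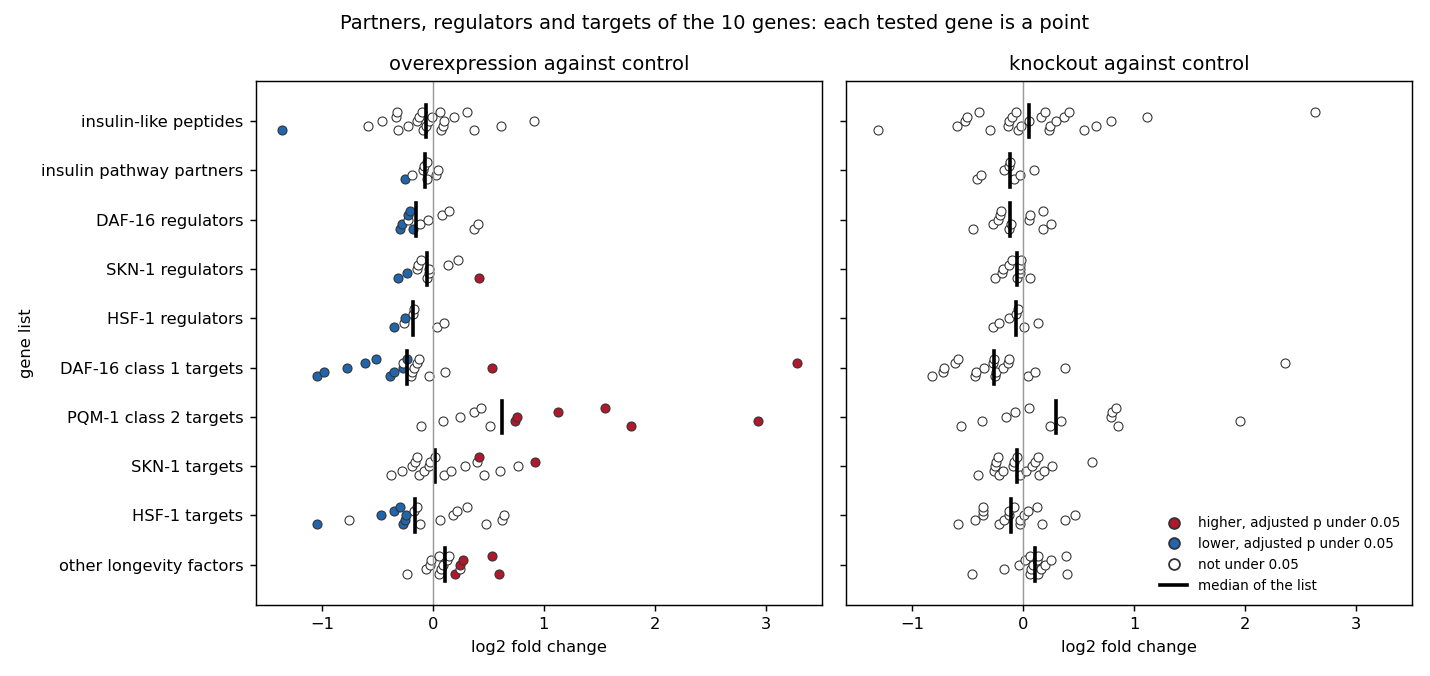
Log2 fold changes (horizontal axis) of the tested genes of each list (rows) for overexpression against control and knockout against control; each point is a gene, filled where the adjusted p was under 0.05, and the black bar is the median of the list. With overexpression the filled points of DAF-16 class 1 targets are mostly lower (9 of 11) and those of PQM-1 class 2 targets all higher (6), and with knockout no point is filled.

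With knockout, no gene of the 10 lists was called by limma, edgeR or DESeq2. Counts at an unadjusted p under 0.05 ran from 0 of 11 SKN-1 regulators to 4 of 18 HSF-1 targets. Among the other target lists they were 3 of 19 for DAF-16 class 1, 3 of 12 for PQM-1 class 2 and 1 of 19 for SKN-1. The share over all genes was 11%. The medians were -0.26 for DAF-16 class 1 targets and 0.30 for PQM-1 class 2 targets, and both rested mainly on 1 library. Relative to the control mean, the median of 19 class 1 targets was -0.25 and -0.30 on the log2 scale with overexpression, -0.34 and -0.01 with the knockout label and -0.03 and 0.03 in control. The median of 12 class 2 targets was 0.49 and 0.78 with overexpression, 0.62 and -0.23 with knockout and -0.01 and 0.01 in control. For these lists the median of the first knockout library was nearer to those of the overexpression libraries than that of the second. For HSF-1 targets the order was the other way, with medians of -0.21 and -0.17 with overexpression, 0.14 and -0.36 with knockout and 0.01 and -0.01 in control. HSF-1 regulators had medians of -0.19 and -0.15 with overexpression, 0.03 and -0.14 with knockout and 0.01 and -0.01 in control, again with the second knockout library nearer to overexpression. Of the class 1 targets, 7 of 19 (36.8%) differed at least 2-fold between the knockout libraries, as did 4 of 12 class 2 targets (33.3%), 6 of 18 HSF-1 targets (33.3%) and 10.1% of all genes. The same held for 0 of the 10 members and for 0 genes of the lists of partners of the cascade and of DAF-16, SKN-1 and HSF-1 regulators. Between the knockout libraries dod-17 differed 18.1-fold and lys-7 5.52-fold, both higher in the first, and icl-1 differed 2.36-fold, higher in the second. The intestine marker sum differed 2.16-fold, also higher in the first. Against control, the median log2 fold change of the class 2 targets was -0.23 without knockout replicate 1 and 0.63 without knockout replicate 2.

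**Figure D4:**
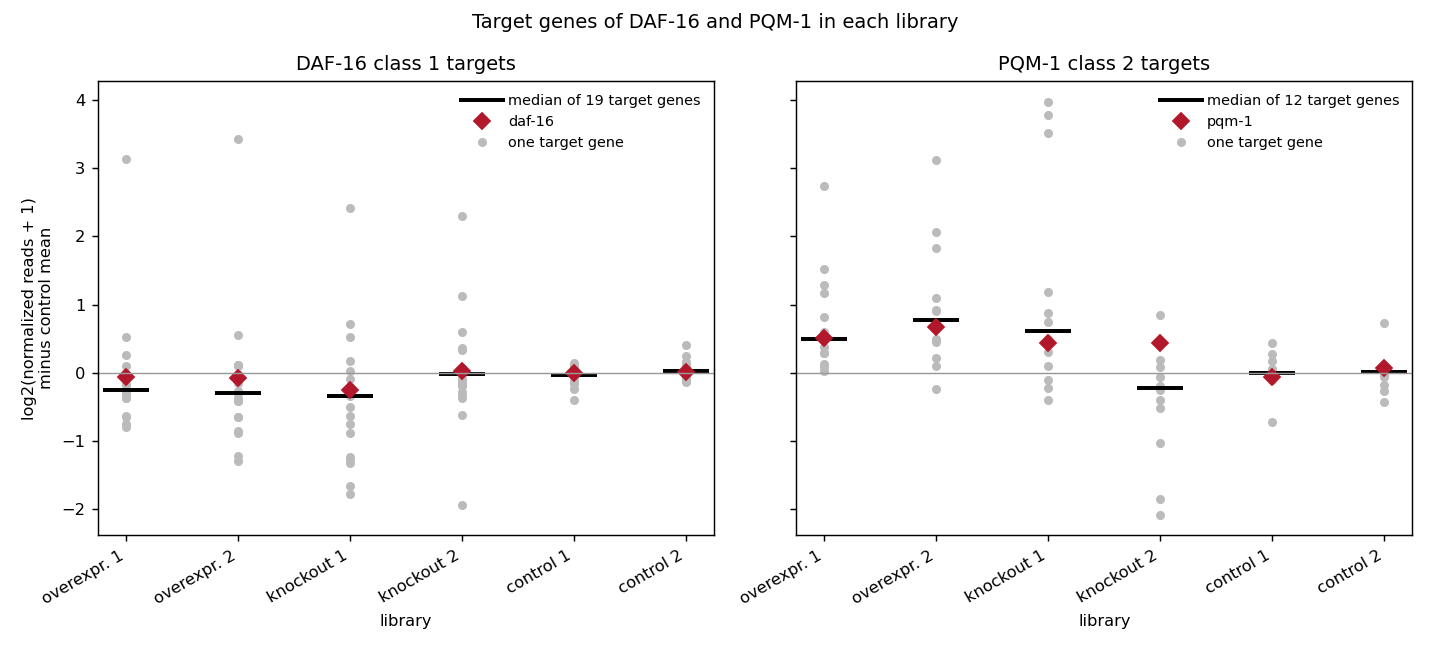
Log2 of the normalized reads plus 1, minus the mean of the control libraries (vertical axis), in each of the 6 libraries for DAF-16 class 1 targets with daf-16 (left) and PQM-1 class 2 targets with pqm-1 (right); grey points are target genes, black bars their medians and diamonds the factor gene. The median of the class 2 targets was 0.62 in the first knockout library and -0.23 in the second, while pqm-1 had 1164 and 1165 normalized reads in them.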

How the data were processed

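Whole-nematode RNA was sequenced from 2 libraries per group. Per the submitters' processing notes HISAT2, featureCounts and DESeq2 were used, with no versions or order, and the genome build is not given in the sources used here. The authors deposited 2 tables, one per comparison, whose values are a normalized signal, reads per gene divided by a size factor. Multiplied back, 100% of the values were whole reads to within 0.01 reads. The deposited fold changes and p-values of the authors were not used. The knockout columns carry no replicate number that matches a label, so their order is that of the table.

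Log2 (normalized reads + 1) was tested with limma 3.58.1 in R 4.3.3 with a mean trend and Benjamini-Hochberg adjustment over all genes tested, those that reached 10 normalized reads in 2 or more libraries. Overexpression was set against knockout in a fit of all 6 libraries on recovered reads with median-of-ratios size factors. Levels in the text are on that common scale and fold changes against control on that of each table, which moved a member by at most 0.0024 (log2). Positions are from the Ensembl annotation of WBcel235. Alternatives were another pseudocount, filters, no trend, TMM scaling, edgeR 4.0.16, DESeq2 1.42.0, all 6 libraries together, a replicate block and each library left out. Named genes are the 10 members, hlh-30, and from each list at most the 4 called genes with the smallest adjusted p in each direction. The values of rol-6 and ges-1 were singled out after they were seen. The members and lists were chosen with earlier results of these data known.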

Additional observations from a re-analysis of the deposited data

How the results depend on the processing

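The count of members called with overexpression (2) became 0 with no filter, with limma without the trend, with all 6 libraries in one fit and with a 2-fold minimum. It was 1 with DESeq2 and 5 at an unadjusted p, and leaving out 1 library gave between 0 and 4. Over all genes, the 2351 calls became 0 with no filter, 3 without the trend, 13 with all 6 libraries in one fit, 296 with the 2-fold minimum and 4600 at an unadjusted p, and between 0 and 2929 with a library left out. With knockout, the members called (0) became 1 at an unadjusted p and between 0 and 5 with a library left out. The 2 genes called became 1 with no filter, 0 without the trend, 118 with DESeq2, 1729 at an unadjusted p, and between 0 and 4080 with a library left out. In overexpression against knockout, the members called (0) ranged from 0 to 1 with a library left out (daf-2, without knockout replicate 2). The 18 genes called became 2 without the trend, 292 with DESeq2, 1811 at an unadjusted p, and between 1 and 2081 with a library left out. Where a library is left out, the lone one of its group is assumed to vary like the others. The cause of these moves was not tested.

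Directions turned only where a library was left out, in 11 of the single-gene results. Those log2 fold changes ranged from -0.048 to 0.0080 for hsf-1 with overexpression. With knockout they ranged from -0.016 to 0.12 for akt-1, -0.24 to 0.020 for daf-16 and -0.18 to 0.029 for hsf-1. In overexpression against knockout they ranged from -0.026 to 0.35 for daf-2, -0.019 to 0.11 for age-1, -0.035 to 0.092 for akt-1, -0.056 to 0.12 for daf-18, -0.10 to 0.18 for daf-16, -0.15 to 0.024 for skn-1 and -0.040 to 0.16 for hsf-1.

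For the lists, alternatives were added after seeing the data. The DAF-16 class 1 targets called with overexpression were 2 higher and 9 lower with edgeR, 1 and 7 with DESeq2, and 0 with no filter, with limma without the trend and with all 6 libraries in one fit. The PQM-1 class 2 targets called were 6 higher with edgeR, 3 with DESeq2, 1 with all 6 libraries and 0 with no filter and without the trend. With at least 10 normalized reads in every library, class 1 calls were 1 higher and 9 lower of 18 tested. Class 2 calls were then 3 higher of 9 tested. Of 250 such list counts 168 stayed within 1.5 times. They include the knockout counts, where the main count was 0 for each list and could not fall. Called list genes kept the call in 279 results over the settings and lost it in 211, and none changed direction. The replicate numbers of the overexpression and control libraries are only numbers in the labels, and their differences between replicates correlated at 0.027 across genes. With a replicate block the members called stayed 2 (pqm-1 and sgk-1) and the genes called were 2920. No paired analysis was possible for the knockout libraries because their columns could not be matched to single samples: the descriptions of both knockout samples end in the same number. With 2 libraries a group, the smallest changes called among the members were near 1.28-fold.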

Other observations

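The values of 2 further list genes are given here, picked after they were seen. The p38 pathway factor gene atf-7 had 6374 and 6485 normalized reads with overexpression, 7140 and 6785 with knockout and 5201 and 5424 in control. The insulin-like peptide gene ins-7, which is also a PQM-1 class 2 target, had 96.9 and 108 with overexpression, 132 and 142 with knockout and 76.2 and 81.3 in control. The knockout libraries were the highest for both genes. With knockout the log2 fold changes were 0.39 for atf-7 and 0.79 for ins-7, and neither gene was called (limma, adjusted p = 0.392 for atf-7 and 0.407 for ins-7). With overexpression atf-7 was called and ins-7 was not (adjusted p = 0.299). Both comparisons use the same control libraries, so a low value in them raises both fold changes.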
